A study of Mus musculus with 3 samples.

Results

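The genes described here are 10 members of the Wnt pathway, *Wnt4*, *Wnt10a*, *Wls*, *Rspo1*, *Rspo3*, *Lgr5*, *Lef1*, *Tcf7l1*, *Nkd1* and *Ccnd1*. They were taken by name from the 9781 gene rows of a single cell expression table, and all 10 have a row. Single cell RNA-seq was done on 3 normal mouse tissues with 1 library each, namely prostate of postnatal day 14 (P14) and 35 (P35) and the urogenital sinus (UGS) of E18.5 male embryos, from which prostate buds grow. The labels give neither genotype nor treatment for these animals, and the study's methods describe its mice as a mix of C57BL/6 and 129S1/SvImJ backgrounds. Barcodes end in 1, 2 or 3, and as the labels do not key these endings to tissues, they are called sets 1, 2 and 3 and were not assigned to ages. The study's text gives a cell number for the E18.5 library that equals that of set 1, but its numbers for the other libraries match neither remaining set, and this was not used. There were no replicates and no test was made, so each difference below is a description, and every 95% interval covers counting error only.

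Wnt proteins are lipid-modified ligands that are carried to the cell surface by the transporter Wls. When a Wnt binds its Frizzled and Lrp receptors, β-catenin is spared from degradation and joins DNA-binding partners of the TCF/LEF family to switch on targets, among them feedback inhibitors such as *Nkd1* and the cell cycle gene *Ccnd1*. R-spondins bind Lgr receptors and keep Frizzled on the cell surface, which makes a cell more sensitive to Wnt. In the developing prostate, Wnt signals pass within and between the epithelium and the stroma that surrounds it.

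The table of RefSeq promoter windows used here (build GRCm38.p6, the assembly of mm10) matched 6 of the 10 genes, with 9 start sites. The 250 bases before a start are shown for *Lef1* (its first start), *Nkd1* and *Tcf7l1*, the first 2 because they were high in the same stromal clusters and the last because, like *Nkd1*, it was higher in stroma than in epithelium. Capitals mark CTTTG or its reverse complement CAAAG, the core of the motif that TCF/LEF proteins bind.
*Lef1* (chr3:131110047-131110296, plus strand): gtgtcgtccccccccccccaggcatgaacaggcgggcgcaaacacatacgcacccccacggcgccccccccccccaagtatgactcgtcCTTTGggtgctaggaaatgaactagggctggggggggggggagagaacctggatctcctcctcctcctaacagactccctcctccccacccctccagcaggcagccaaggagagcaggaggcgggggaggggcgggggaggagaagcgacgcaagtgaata
*Nkd1* (chr8:88527383-88527632, plus strand): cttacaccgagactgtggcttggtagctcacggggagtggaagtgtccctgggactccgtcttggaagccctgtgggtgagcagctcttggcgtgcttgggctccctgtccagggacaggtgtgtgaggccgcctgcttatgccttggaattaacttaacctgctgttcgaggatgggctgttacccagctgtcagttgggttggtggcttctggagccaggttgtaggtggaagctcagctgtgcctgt
*Tcf7l1* (chr6:72789046-72789295, minus strand): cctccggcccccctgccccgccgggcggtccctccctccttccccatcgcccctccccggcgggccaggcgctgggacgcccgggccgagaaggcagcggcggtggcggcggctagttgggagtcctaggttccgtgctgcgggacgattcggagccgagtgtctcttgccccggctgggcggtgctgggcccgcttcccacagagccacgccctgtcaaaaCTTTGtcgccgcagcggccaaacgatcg
The *Lef1* window held 1 core, 161 bases before the start, the *Tcf7l1* window held 1, 28 bases before it, and in the *Nkd1* window these letters did not occur. Of 32851 windows of this length, 48.6% held the core, so a match is common and is given as a description only. The other 3 *Lef1* windows, not shown, held 2, 1 and 3 cores, the last (chr3:131156044-131156293) with 2 CTTTGA and 1 CTTTGT. None of the windows shown held CTTTGA on either strand, which 13.8% of all windows did, and CTTTGT was in the *Tcf7l1* window and in 16.5% of all. The *Nkd1* window lies inside the gene's span on chromosome 8 (88521342 to 88594887).

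The cells were clustered without the 10 genes, and clusters were named from marker lists. UMIs (unique molecular identifiers) count captured mRNA molecules, and the median cell held 19357 of them in set 1 (766 cells), 1738 in set 2 (5350 cells) and 1788 in set 3 (8457 cells, of which 97 with under 200 genes were left out of the classes). Barcodes shared by sets numbered 1 between sets 1 and 2, 0 between sets 1 and 3 and 13 between sets 2 and 3. Levels are given as CPM, a gene's UMIs added over a class and scaled to 1000000 UMIs of that class. Epithelium-like cells (basal-like, luminal-like and urothelium-like joined) numbered 150, 1435 and 2780, and fibroblast-like cells 344, 1663 and 2622. The classes were named from the marker lists, so the markers are not a separate check of them. The 13 epithelial markers summed in fibroblast-like cells to 0.712%, 5.004% and 1.38% of their epithelial level. The 13 fibroblast markers summed in epithelium-like cells to 1.08%, 9% and 4.73% of their fibroblast-like level. Without integration 6 cells of set 1 were fibroblast-like in place of 344, and 482 fell in 1 unnamed cluster. In set 2, 444 were then epithelium-like in place of 1435. The subtype names held less well in set 1, where luminal-like cells carried the urothelial marker *Upk1a* at 771 CPM, against 28.9 and 50.9 CPM in sets 2 and 3, and where without integration of the sets 145 cells fell in 1 urothelium-like cluster and none in a basal-like or luminal-like one. Without integration the basal-like name also failed in set 2, where 24 cells had it in place of 974 and 1150 cells fell in 1 unnamed cluster, while set 3 had 1876 in place of 1726. The smooth muscle name was weak there too, as its 6 markers summed in smooth muscle-like cells to 3982 CPM in set 1 against 24330 and 23270 in sets 2 and 3, below the 5212 CPM of set 1 pericyte-like cells, and without integration only 3 cells of set 1 had the name.

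Between epithelium-like and fibroblast-like cells, *Wnt4* was at least 2-fold higher in epithelium in all 3 sets, and *Rspo3*, *Nkd1* and *Tcf7l1* were at least 2-fold higher in fibroblast-like cells in all 3. *Ccnd1* changed its order between sets, *Lef1* was lower in epithelium in set 1 with intervals that held 0 in sets 2 and 3, and *Wls* differed by less than 2-fold in each. Of the 9 members with a ratio in all sets, 1 was thus higher in epithelium, where 7.68% of 7569 gene rows were, and 3 were lower, where 13.5% were. The median log2 ratio of the members was -1.66 in set 1 (10 genes), -0.23 in set 2 (9) and -0.91 in set 3 (10), against -0.16, -0.11 and 0.02 over all gene rows.

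**Figure D1:**
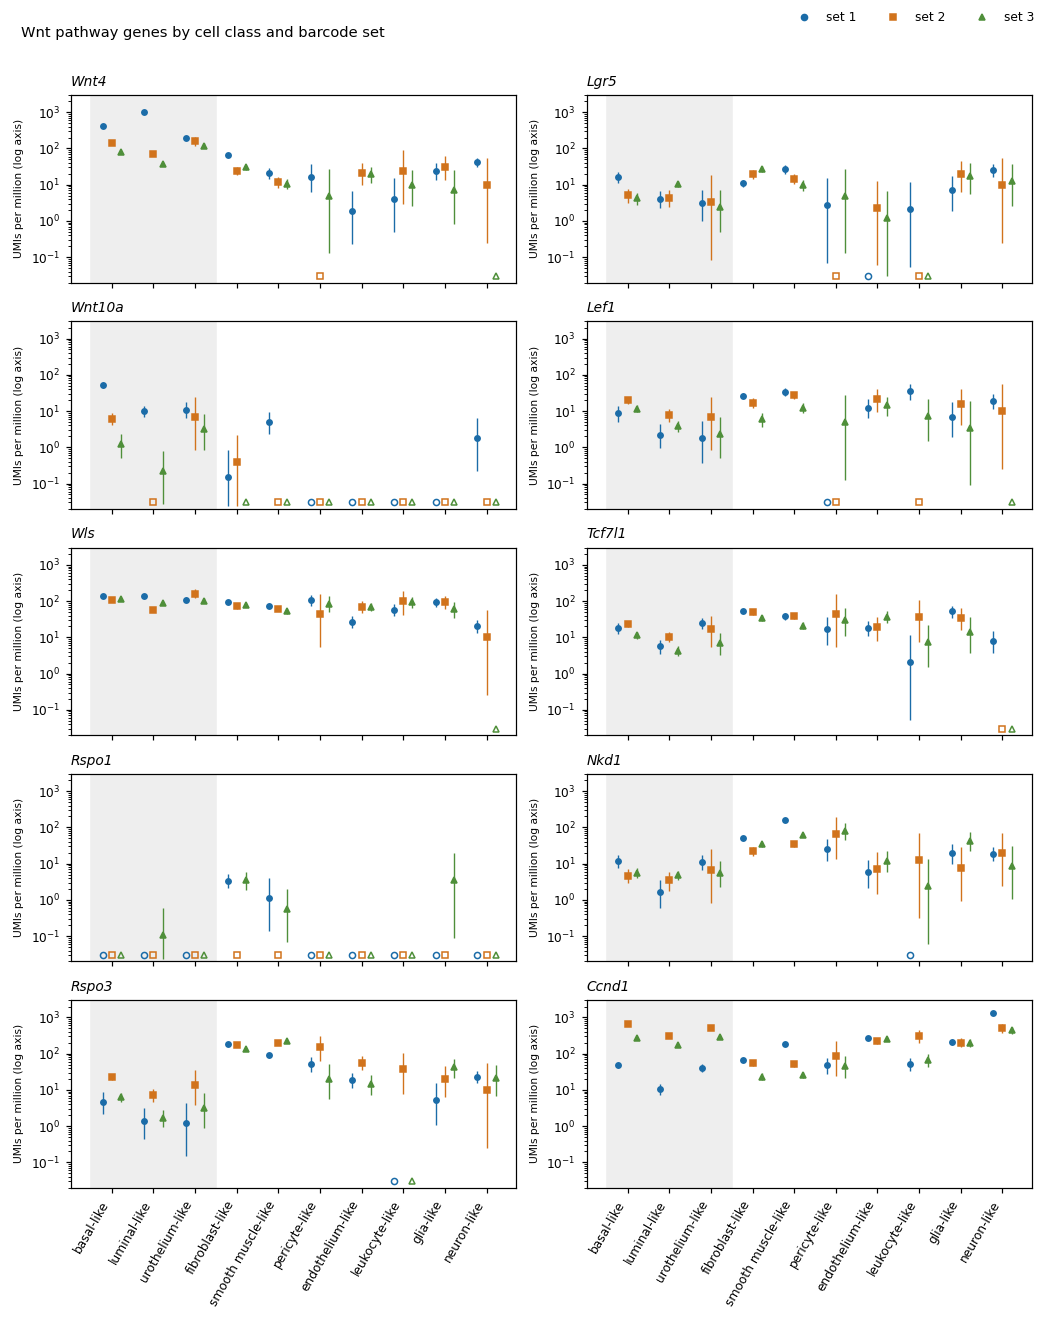
Level of each of the 10 genes (CPM, log axis) in 10 cell classes, with the epithelial classes shaded. Points are barcode sets, bars are exact 95% Poisson intervals and open symbols at the foot mark 0 UMIs. *Rspo3* is high in fibroblast-like and smooth muscle-like cells, *Wnt4* in the 3 epithelial classes, and *Wls* is at a like level in most classes.

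*Wnt4*, a secreted ligand, was higher in epithelium than in stroma in each set. The epithelium held it at 667 CPM (4853 UMIs, 649 to 686.5) in set 1, 113.5 (106 to 121) in set 2 and 60.4 (56.8 to 64.2) in set 3. The fibroblast-like level was 64.1 (58.2 to 70.5), 24.2 (18.6 to 31.04) and 30.1 (24.8 to 36.1) CPM. On the log2 scale the gap was 3.38 (3.24 to 3.53), 2.23 (1.86 to 2.62) and 1.01 (0.73 to 1.30), and both classes were highest in set 1. Set 3 lay at the 2-fold line, and its *Wnt4* ratio fell below it, to between 0.60 and 0.99, under 4 other choices of clusters or cells. *Wnt4* in fibroblast-like cells was 9.61%, 21.3% and 49.7% of its epithelial level. The 13 epithelial markers summed there to 0.712%, 5.004% and 1.38% of theirs, and their part in the fibroblast-like *Wnt4* was not tested. Smooth muscle-like cells stood lower, at 20.7, 11.5 and 10.7 CPM, and leukocyte-like cells at 4.17, 24.4 and 9.68 CPM (2, 2 and 4 UMIs).

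The share of cells with a *Wnt4* UMI followed the same order. It was 91.3% of set 1 epithelium-like cells (137 of 150), 35.6% of set 2 (511 of 1435) and 24.8% of set 3 (689 of 2780), at median depths of 41372, 4097 and 3554 UMIs. After each cell was thinned to 900 UMIs the shares were 42.3%, 9.68% and 5.80%, against 4.39%, 2.05% and 2.63% of fibroblast-like cells. In leukocyte-like cells, which should lack the gene, 0 of 38, 0 of 23 and 1 of 168 thinned cells had a UMI (median depths before thinning of 10313, 2027 and 2003). These cells held the epithelial markers at 0.967%, 44.8% and 12.8% of the epithelial level, the highest of these from only 25 cells in set 2, and the part of this in their *Wnt4* was not tested.

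*Wnt10a*, a ligand best known from skin and tooth epithelium, was seldom read in stroma. Epithelium-like cells held 156, 30 and 14 UMIs (21.5, 3.62 and 0.823 CPM) and fibroblast-like cells 1, 1 and 0. The log2 ratio was 7.16 (4.66 to 12.5) in set 1 and 3.21 (0.62 to 8.56) in set 2, and in set 3 the depth allowed only that the gene was at least 1.03-fold higher in epithelium. Pericyte-like, endothelium-like, leukocyte-like and glia-like cells had 0 UMIs in each set. In smooth muscle-like cells all 9 UMIs of set 1 lay in 1 of 88 cells, and the unnamed cluster, which carried epithelial and muscle markers, held 14, 2 and 1 UMIs.

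*Wls*, the carrier of Wnt ligands, was read in nearly every class. Epithelium-like cells stood at 131, 88.8 and 98.5 CPM and fibroblast-like cells at 95.4, 71.5 and 78.4. The log2 ratios were small, 0.46 (0.31 to 0.61), 0.31 (0.08 to 0.56) and 0.33 (0.15 to 0.51). Smooth muscle-like cells stood at 74.8, 60.5 and 52.0 CPM. The lowest levels were in neuron-like cells, at 20.6, 9.94 and 0 CPM, the last 2 from 15 and 19 cells with 1 and 0 UMIs. In set 1, endothelium-like cells were low as well, at 26.6 CPM (17.7 to 38.5), against 70.3 and 68.4 in sets 2 and 3.

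*Rspo3*, a secreted R-spondin, was higher in stroma in every set. Levels in fibroblast-like cells were 189 (1255 UMIs, 179 to 200), 170 (154 to 187) and 131 (120 to 143.5) CPM, and epithelium-like cells at 2.20 (16 UMIs), 15.8 (131) and 3.59 (61). Epithelium over fibroblast gave, on the log2 scale, -6.42 (-7.24 to -5.72), -3.43 (-3.72 to -3.14) and -5.20 (-5.60 to -4.81), the widest gap among the 3 genes that were higher in fibroblast-like cells. The epithelial level was 1.17%, 9.31% and 2.73% of the fibroblast-like one, and the 13 fibroblast markers summed in epithelium-like cells to 1.08%, 9% and 4.73% of theirs, in the same order of sets. The part of this marker signal in the epithelial *Rspo3* was not tested. Of cells thinned to 900 UMIs, 14.9%, 13.3% and 8.60% of fibroblast-like cells and 0%, 1.12% and 0.328% of epithelium-like cells had an *Rspo3* UMI.

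Smooth muscle-like cells read *Rspo3* at 89.8 (76.5 to 105), 196 (181 to 212) and 221 (206 to 237) CPM. Against fibroblast-like cells they were lower in set 1 (log2 ratio -1.07, -1.32 to -0.83) and higher in sets 2 (0.21, 0.03 to 0.39) and 3 (0.75, 0.59 to 0.92). Pericyte-like, endothelium-like and glia-like cells lay between 5.202 and 153 CPM with at most 24 UMIs in a set. Fibroblast markers stood in pericyte-like cells at 60.75%, 43.8% and 15.1% of the fibroblast-like level, in endothelium-like cells at 5.30%, 9.64% and 6.18% and in glia-like cells at 11.2%, 35.6% and 28.75%, and their part in these levels was not tested.

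*Rspo1*, the other R-spondin, was rare. Fibroblast-like cells held 22, 0 and 13 UMIs (3.31, 0 and 3.46 CPM), and epithelium-like cells 0, 0 and 1. In set 1 the gene was at least 8.03-fold lower in epithelium, and in set 3 the log2 ratio was -5.88 (-11.3 to -3.14). In set 2 no cell of any class had a UMI, so the gene was not detectable at this depth in 5350 cells.

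*Lgr5*, a receptor for R-spondins that marks stem cells in several epithelia, was higher in fibroblast-like than in epithelium-like cells in each set. Its fibroblast-like levels were 10.8 (72 UMIs, 8.48 to 13.7), 19.5 (14.5 to 25.7) and 27.1 (22.1 to 32.9) CPM. Its epithelial levels were 7.01 (51 UMIs, 5.22 to 9.22), 4.71 (3.35 to 6.44) and 7.41 (6.17 to 8.82). The gap passed 2-fold in sets 2 and 3 (log2 ratios -2.05, -2.70 to -1.42, and -1.87, -2.26 to -1.48) and not in set 1 (-0.63, -1.18 to -0.09). Smooth muscle-like cells ran the other way across the sets, at 26.8, 14.7 and 9.63 CPM, while endothelium-like and leukocyte-like cells held 0 or 1 UMI in a set. Neuron-like cells of set 1 stood at 25.1 CPM (28 UMIs in 14 of 33 cells, 16.7 to 36.3).

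The DNA-binding partners of β-catenin differed from each other. *Tcf7l1*, known mostly as a repressor of Wnt targets, had fibroblast-like levels of 53.4 (48.02 to 59.3), 49.2 (41.0 to 58.6) and 34.04 (28.4 to 40.5) CPM and epithelial levels of 13.1 (10.6 to 16.0), 17.9 (15.1 to 21.0) and 7.29 (6.06 to 8.69). The log2 ratios of epithelium over fibroblast were -2.03 (-2.37 to -1.70), -1.46 (-1.81 to -1.11) and -2.22 (-2.59 to -1.86). Smooth muscle-like cells stood at 38.0, 39.4 and 20.9 CPM, under fibroblast-like cells in each set, with an interval of the ratio that held 0 in set 2 (-0.32, -0.69 to 0.05). Thinned to 900 UMIs per cell, the *Tcf7l1* ratio of set 1 turned from -0.49 to 0.41, from 4 of 86 smooth muscle-like and 10 of 342 fibroblast-like cells with a UMI.

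*Lef1*, which mostly activates targets, gave no fixed order. Its level was 26.8 (23.0 to 31.03), 16.8 (12.2 to 22.6) and 5.85 (3.67 to 8.86) CPM in fibroblast-like cells, and in epithelium-like cells 3.85 (2.56 to 5.57), 14.4 (11.9 to 17.2) and 6.82 (5.63 to 8.18). The log2 ratio was -2.80 (-3.43 to -2.22) in set 1, and in sets 2 and 3 its interval held 0 (-0.23, -0.74 to 0.31, and 0.22, -0.45 to 0.95). Smooth muscle-like cells stood above both, at 33.5, 26.9 and 12.4 CPM, although in set 1 the interval of their ratio to fibroblast-like cells held 0 (0.32, -0.13 to 0.75).

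*Nkd1*, a feedback inhibitor that binds Dishevelled and is a common readout of Wnt signalling, was higher in smooth muscle-like than in fibroblast-like cells and lowest of the 3 in epithelium. The smooth muscle-like level was 156 (280 UMIs, 139 to 176), 34.9 (28.7 to 42.1) and 61.4 (53.6 to 69.96) CPM, the fibroblast-like level 51.2 (45.9 to 56.9), 21.9 (16.5 to 28.4) and 33.8 (28.2 to 40.2), and the epithelial level 6.46 (4.75 to 8.60), 4.23 (2.94 to 5.88) and 5.11 (4.10 to 6.31). The order was the same in each set with no overlap of the intervals, though in set 2 those of fibroblast-like and smooth muscle-like cells nearly touched. Pericyte-like cells stood at 25.1, 65.4 and 80.3 CPM (9, 3 and 16 UMIs), above smooth muscle-like cells in sets 2 and 3 within wide intervals. Epithelium over fibroblast gave log2 ratios of -2.99 (-3.46 to -2.54), -2.37 (-3.03 to -1.74) and -2.72 (-3.13 to -2.32), and smooth muscle over fibroblast gave 1.61 (1.38 to 1.84), 0.68 (0.20 to 1.17) and 0.86 (0.54 to 1.19). Thinned to 900 UMIs, 5.81%, 3.37% and 5.24% of smooth muscle-like cells had a *Nkd1* UMI, against 3.80%, 1.71% and 2.90% of fibroblast-like and 0%, 0.421% and 0.401% of epithelium-like cells, and 0 leukocyte-like cells in each set. The epithelial level was 12.6%, 19.3% and 15.1% of the fibroblast-like one, and the fibroblast markers stood there at 1.08%, 9% and 4.73%. Their part in the epithelial *Nkd1* was not tested.

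*Ccnd1*, cyclin D1, drives entry into the cell cycle and answers to Wnt among other signals. Its epithelial level was 27.5 (200 UMIs, 23.8 to 31.6) CPM in set 1, 515 (500 to 531) in set 2 and 223 (216 to 230.5) in set 3, and its fibroblast-like level 67.6 (61.5 to 74.1), 55.1 (46.4 to 64.9) and 23.4 (18.8 to 28.8). The log2 ratio was therefore below 0 in set 1 (-1.30, -1.55 to -1.05) and well above it in sets 2 (3.23, 2.98 to 3.48) and 3 (3.25, 2.95 to 3.58). The proliferation marker *Mki67* changed sides in the same sets by less, with 19.4, 21.4 and 18.4 CPM in epithelium-like and 27.3, 14.5 and 6.12 CPM in fibroblast-like cells (log2 ratios -0.49, -0.82 to -0.17, then 0.56, 0.05 to 1.12, and 1.59, 0.98 to 2.27). The part of proliferation in the *Ccnd1* ratios was not tested. In set 1 the 200 UMIs lay in 37 of 150 epithelium-like cells (24.7%), at a median depth of 41372 UMIs. In sets 2 and 3, 72.3% and 50.5% of cells had one at median depths of 4097 and 3554. Thinned to 900 UMIs the shares were 2.69%, 32.3% and 17.8%, against 2.63%, 8.70% and 1.19% of leukocyte-like cells, which carried epithelial markers as given for *Wnt4*.

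**Figure D2:**
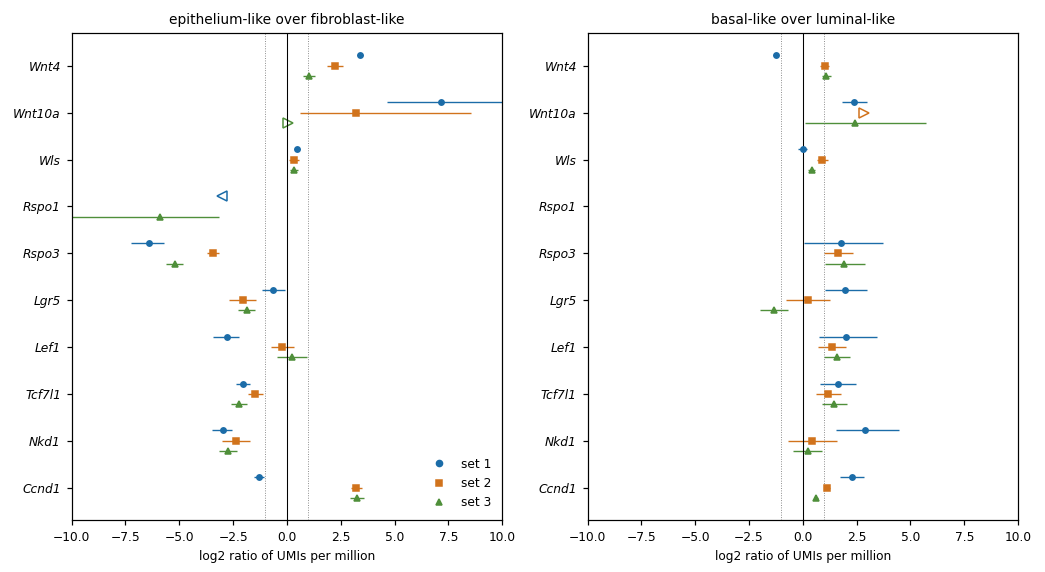
Log2 ratios of the 10 genes between epithelium-like and fibroblast-like cells (left) and between basal-like and luminal-like cells (right) in each set, with exact 95% intervals for counting error. Dotted lines mark 2-fold, open triangles are bounds where a class had 0 UMIs, and *Ccnd1* sits left of 0 in set 1 and right of it in sets 2 and 3.

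*Ccnd1* was also read well outside epithelium and fibroblasts. Its neuron-like level was 1360 (1292 to 1430), 497 (369 to 655) and 441 (360 to 534) CPM from 33, 15 and 19 cells. Endothelium-like cells stood at 268, 225 and 253 CPM and glia-like cells at 212, 202 and 202. The epithelial markers stood at 0.490%, 13.4% and 20.3% of the epithelial level in endothelium-like cells and at 2.14%, 7.86% and 14.1% in glia-like cells, and their part in these *Ccnd1* levels was not tested. Smooth muscle-like cells stood at 183, 51.9 and 26.1 CPM, so set 1 was the highest there while it was the lowest in epithelium. The 7 mitotic markers ran in the same order in these cells, summing to 576, 56.4 and 31.9 CPM, and the smooth muscle markers were lowest in set 1, as given above. The part of either in the difference between sets was not tested.

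Within the stroma, the fibroblast-like cells formed 2 clusters. The first (204, 852 and 1627 cells) was led by genes such as *Mmp2*, *Col15a1* and the mesenchymal factor *Tcf21*, and the second (140, 811 and 995 cells) by *Dpt*, *Lum* and *Ptx3*. As the clusters were cut from these same cells, the values compare them and test nothing. *Lef1* and *Nkd1* were at least 2-fold higher in the *Tcf21* cluster in all 3 sets, 2 of the 8 members with a ratio in each, where 0.899% of gene rows were. None of the 8 was at least 2-fold lower in all sets, where 1.21% of gene rows were.

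*Lef1* was low in the *Dpt* cluster. It stood at 52.5 (175 UMIs, 45.02 to 60.9), 28.6 (35 UMIs, 19.95 to 39.8) and 9.28 (20 UMIs, 5.67 to 14.3) CPM in the *Tcf21* cluster against 0.906 (3 UMIs), 5.98 (8) and 1.25 (2) in the *Dpt* cluster. On the log2 scale the clusters differed by 5.86 (4.29 to 8.15), 2.26 (1.13 to 3.58) and 2.90 (0.85 to 6.04). In set 1, 82 of 204 cells of the *Tcf21* cluster and 2 of 140 cells of the *Dpt* cluster had a UMI (40.2% against 1.43%). *Lef1* in epithelium-like cells of set 1 lay below the first and above the second.

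*Nkd1* followed with a smaller gap, at 80.1 (70.8 to 90.3), 31.1 (22 to 42.7) and 45.9 (37.3 to 55.9) CPM against 22.1 (17.3 to 27.7), 13.5 (7.97 to 21.3) and 17.5 (11.6 to 25.2). The clusters differed by 1.86 (1.48 to 2.26), 1.21 (0.36 to 2.11) and 1.40 (0.78 to 2.06) on the log2 scale. *Rspo3* changed sides, with 268, 125 and 107 CPM in the *Tcf21* cluster and 109, 211 and 164 in the *Dpt* cluster (log2 ratios 1.29, -0.75 and -0.61, no interval holding 0). *Tcf7l1* did not differ beyond counting error in any set, its ratios of 0.21, -0.28 and -0.38 all having intervals across 0. *Lgr5* was 3.47-fold higher in the *Tcf21* cluster in set 2 (38 against 12 UMIs), and its intervals held 0 in sets 1 and 3. *Wnt4* stood at 73.5, 28.6 and 39.9 CPM in the *Tcf21* cluster against 54.7, 20.2 and 16.8, and *Ccnd1* at 93.02, 61.4 and 21.3 against 42.0, 49.3 and 26.2.

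**Figure D3:**
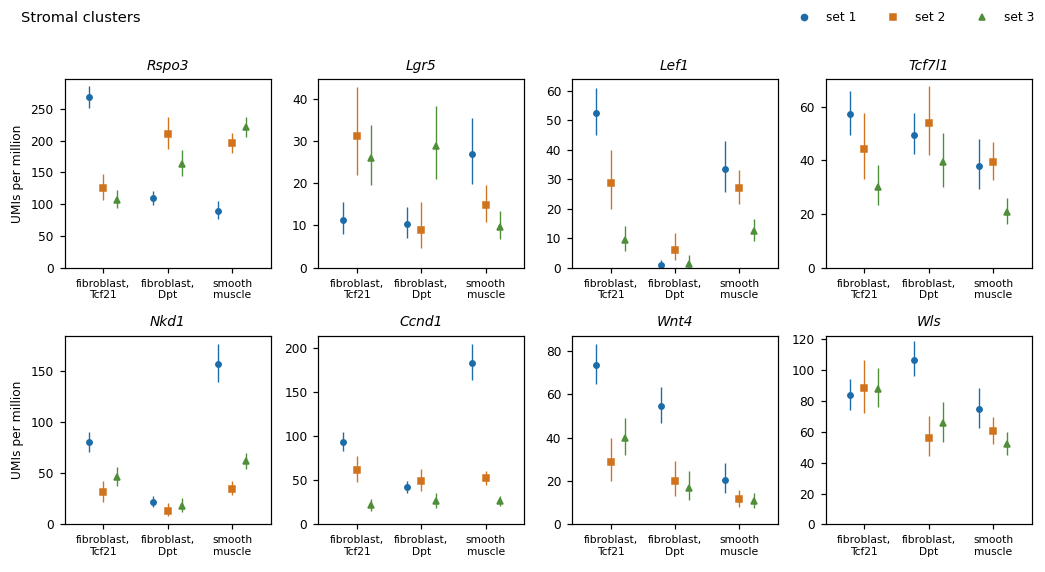
Levels (CPM, linear axis from 0) of 8 genes in the 2 fibroblast-like clusters and in smooth muscle-like cells. Points are barcode sets with exact 95% Poisson intervals. *Lef1* and *Nkd1* are lowest in the *Dpt* cluster in every set, while *Rspo3* there is below the *Tcf21* cluster in set 1 and above it in sets 2 and 3.

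Smooth muscle-like cells (88, 1622 and 1968) were led by *Actg2*, *Myl9* and *Des*, with skeletal muscle genes such as *Tnnt1* among the first 10. They also held the 13 fibroblast markers at 32.4%, 32.3% and 18.4% of the fibroblast-like level, and the part of this in their ratios was not tested. Against fibroblast-like cells 0 of the 8 members with a ratio were at least 2-fold higher in all sets, where 1.5% of 6863 gene rows were, and 1 was lower, *Wnt4*, where 3.02% were. The *Wnt4* log2 ratios were -1.64 (-2.16 to -1.15), -1.07 (-1.71 to -0.46) and -1.49 (-2.05 to -0.95). *Lgr5* in smooth muscle-like cells was above fibroblast-like cells in set 1 (1.31, 0.75 to 1.85) and below them in set 3 (-1.49, -2.09 to -0.93). Thinned to 900 UMIs per cell, the *Lgr5* ratio of set 1 was -0.01, from only 1 of 86 smooth muscle-like and 4 of 342 fibroblast-like cells with a UMI, too few to give a direction. The mitotic cluster (20, 127 and 51 cells), which carried 12 of 13 fibroblast and 6 of 6 smooth muscle markers, held *Nkd1* at 119.5, 49.3 and 70.3 CPM and *Lef1* at 60.8, 30.8 and 0 CPM, the last from 51 cells with 0 UMIs.

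Within the epithelium, 4 of 9 members were at least 2-fold higher in basal-like than in luminal-like cells in all sets, where 3.96% of 6747 gene rows were, and 0 were lower, where 2.27% were. They were *Wnt10a*, *Lef1*, *Tcf7l1* and *Rspo3*. This count was not repeated under the alternatives given below. Basal-like cells joined 2 clusters in unlike mixes, one with 5, 442 and 1135 cells and the other, led by *Lamb3*, with 45, 532 and 591. For genes whose values in the second cluster alone are not given, the part of this mix in differences between sets was not tested. *Wnt10a* stood at 52.2 (101 UMIs, 42.5 to 63.4), 6.19 (28 UMIs, 4.11 to 8.94) and 1.20 (8 UMIs) CPM in basal-like cells, against 10.01 (37 UMIs, 7.05 to 13.8), 0 and 0.221 (2 UMIs) in luminal-like cells. The log2 ratio was 2.38 (1.83 to 2.97) in set 1, the gene was at least 7.14-fold higher in set 2, and the ratio was 2.44 (0.11 to 5.71) in set 3.

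*Lef1* stood at 8.78, 19.9 and 11.7 CPM in basal-like and 2.16, 7.79 and 3.86 in luminal-like cells (log2 ratios 2.02, 0.73 to 3.44; 1.35, 0.72 to 2.03; and 1.59, 1.00 to 2.21). *Tcf7l1* stood at 17.6, 23.6 and 11.5 against 5.68, 10.4 and 4.19 CPM (1.63, 1.19 and 1.46). *Rspo3* in basal-like cells, at 4.65, 22.5 and 6.28 CPM, was 1.78, 1.64 and 1.92 above luminal-like cells on the log2 scale. In set 1 this rested on 9 against 5 UMIs, with an interval of 0.05 to 3.71. The fibroblast markers were higher in basal-like cells too. They summed there to 3.23%, 12.8% and 9.53% of the fibroblast-like level, against 0.410%, 4.33% and 1.59% in luminal-like cells. The part of these markers in the results for *Lef1*, *Tcf7l1* and *Rspo3* was not tested.

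*Wnt4* changed sides inside the epithelium, between set 1 and the other sets. Luminal-like cells of set 1 stood at 1006 CPM (974 to 1039) from 3719 UMIs in 66 of 70 cells, against 422 (393 to 451.5) in basal-like cells (log2 ratio of basal over luminal -1.25, -1.37 to -1.15). In sets 2 and 3 basal-like cells were the higher, at 143 (132 to 155) against 70.7 (62.1 to 80.2) and 79.9 (73.3 to 87.01) against 37.6 (33.7 to 41.8) CPM (1.02, 0.80 to 1.24, and 1.09, 0.89 to 1.29). Urothelium-like levels were 194 (173 to 217), 160.5 (118 to 213) and 121 (102 to 142) CPM. They were the highest of the 3 epithelial classes in sets 2 and 3, although in set 2 their interval held the basal-like level. The urothelium-like name was weak in sets 2 and 3, where these cells held the luminal markers at 142% and 104% of the luminal-like level. Without integration 6 and 28 cells of these sets had the name, in place of 42 and 105. The part of this in their *Wnt4* levels was not tested. The *Lamb3* cluster alone held *Wnt4* at 436, 151 and 73.2 CPM, on the same side of luminal-like cells as the joined class in each set. The set 1 luminal-like cells are those that also carried *Upk1a*, and the part of this in the change of side was not tested.

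*Ccnd1* was higher in basal-like than in luminal-like cells in each set, at 49.6 against 10.3, 675 against 305 and 273 against 176 CPM (log2 ratios 2.27, 1.14 and 0.63). *Nkd1* was higher in basal-like cells of set 1 (11.9 against 1.62 CPM, 23 and 6 UMIs), and in sets 2 and 3 the intervals held 0. *Lgr5* was higher in basal-like cells of set 1 (16.0 against 4.06 CPM, 31 and 15 UMIs) and in luminal-like cells of set 3 (10.5 against 4.18 CPM, 95 and 28 UMIs), and the *Lamb3* cluster alone stood at 14.5 and 4.88 CPM in these sets. *Wls* stood at 137 CPM in both classes of set 1 and was 1.88-fold and 1.33-fold higher in basal-like cells of sets 2 and 3.

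To see whether members shared cells, 6 pairs were counted after thinning, beside the product of their shares within a class. At 900 UMIs no pair met in more than 5 cells of a class and set. *Lef1* and *Ccnd1* met in 5 epithelium-like cells of set 2, where the product gave 5.82. *Lef1* and *Nkd1* met in 5 of 1870 smooth muscle-like cells of set 3, where the product gave 0.996, and in 0 of 1571 of set 2, where it gave 1.38. *Lgr5* and *Rspo3* met in 3 of 2244 fibroblast-like cells of set 3, where the product gave 4.3. *Lef1* and *Wnt10a* met in 0 epithelium-like cells of each set.

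Set 1 was deep enough for a count at 10000 UMIs per cell. There *Lef1* was in 61 and *Nkd1* in 104 of 294 fibroblast-like cells, and both were in 35 where the product gave 21.6. This class joins the *Tcf21* and *Dpt* clusters, between which both genes differed. Both were in 12 of 65 smooth muscle-like cells, where the product gave 10.1. *Lef1* and *Ccnd1* met in 30 fibroblast-like cells (product 20.8), *Lgr5* and *Rspo3* in 15 (12.3) and *Rspo1* and *Rspo3* in 7 (5.10). In set 1 *Ccnd1*, *Rspo3* and *Rspo1* were also higher in the *Tcf21* than in the *Dpt* cluster (log2 ratios 1.15, 1.29 and 1.76). The part of this in these counts was not tested. All 30 epithelium-like cells with *Wnt10a*, of 142, also had *Wnt4*, which was in 123 (product 26.0).

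Genes with the most similar pattern were sought for the 9 members with at least 100 UMIs, by Pearson's r of log2(CPM + 5) over 33 groups of a class and a set with at least 20 cells, among 7174 genes. The groups share libraries and depth, so r is a description. *Rspo3* was closest to the chemokine *Cxcl12* (r = 0.91), the stromal growth factor *Fgf7* (0.90) and the collagen-processing enhancer *Pcolce* (0.90). *Wnt4* was closest to *Plekhg6* (0.89), *Rassf7* (0.88) and *Epha1* (0.86), and *Nkd1* to *Tcf21* (0.87), *Hnrnph3* (0.85) and *Tceal3* (0.85).

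For *Lgr5* the closest were the proteoglycan *Gpc1* (0.85), the guidance ligand *Slit2* (0.84) and *Negr1* (0.82), and for *Wnt10a* they were *Upk3bl* (0.82), the ligand *Shh* (0.79) and *Prrg4* (0.78). *Lef1* was closest to *Gm9774* (0.81), *D1Ertd622e* (0.75) and *Phtf1* (0.73), and *Tcf7l1* to *Akap2* (0.77), *Abl1* (0.75) and *Heph* (0.74). The lowest values were those of *Wls* (*S100a11* 0.69, *F3* 0.67, *Herc4* 0.65) and *Ccnd1* (*Rgs12* 0.67, *Klf13* 0.65, *Ankrd6* 0.64).

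Of 74 other Wnt pathway genes listed, 29 have a row, and the others, *Ctnnb1*, *Axin2*, *Tcf7l2* and *Wnt5a* among them, were not analysed here. Between epithelium-like and fibroblast-like cells, 27 had a ratio in all sets, of which 1 was at least 2-fold higher in epithelium and 5 were lower, beside the 7.68% and 13.5% of all gene rows. The one that was higher was *Lgr4*, another R-spondin receptor, at 29.6, 43.1 and 46.1 CPM against 10.1, 16.4 and 10.1. Those that were lower were the ligands *Wnt2* and *Wnt11*, the acyltransferase *Porcn* that prepares Wnt ligands for export, and the receptors *Fzd1* and *Ror1*.

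**Figure D4:**
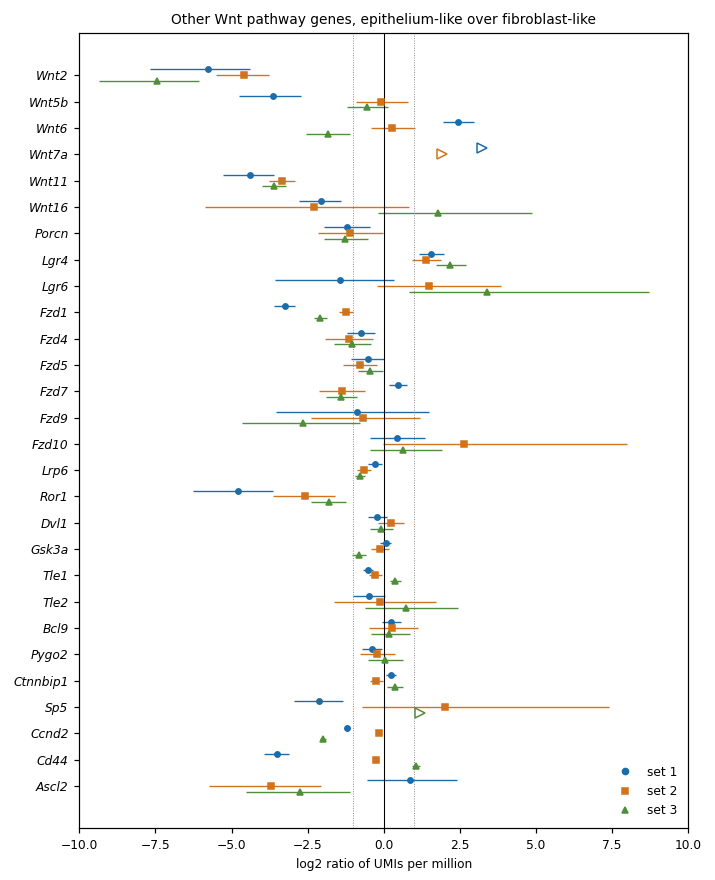
Epithelium to fibroblast log2 ratios for the other Wnt pathway genes with a ratio in at least 1 set. Points are barcode sets, bars are exact 95% intervals for counting error, dotted lines mark 2-fold and open triangles are bounds. *Wnt2*, *Wnt11*, *Porcn*, *Fzd1* and *Ror1* lie left of the lower dotted line in all sets and *Lgr4* right of the upper one.

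*Wnt2* was read at 30.1, 40.6 and 41.0 CPM in fibroblasts and at 0.550, 1.69 and 0.235 in epithelium-like cells (4, 14 and 4 UMIs). *Wnt11*, another ligand, stood at 40.2, 71.9 and 51.3 against 1.93, 7.12 and 4.23 CPM. *Fzd1* stood at 109, 96.9 and 91.7 against 11.4, 41.2 and 21.8 CPM. *Ror1* stood at 22.9, 10.2 and 12.8 against 0.825, 1.69 and 3.64, and *Porcn* at 7.23, 5.47 and 6.91 against 3.16, 2.54 and 2.88. The *Porcn* log2 ratios lay near the 2-fold line with intervals that crossed it, at -1.19 (-1.98 to -0.45), -1.11 (-2.15 to -0.02) and -1.26 (-1.98 to -0.52).

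The coreceptor *Lrp6* was a little lower in epithelium in all sets (log2 ratios -0.28, -0.65 and -0.78), and *Gsk3a*, a kinase that marks β-catenin for degradation, stood at 87.6, 45.3 and 35.1 CPM in epithelium-like against 84.0, 49.2 and 62.0 in fibroblast-like cells. *Ctnnbip1*, an inhibitor of β-catenin, and the corepressor *Tle1* stayed within 2-fold in every set. *Ccnd2*, the paralog of *Ccnd1*, was lower in epithelium in every set, at 218, 470 and 100.2 CPM against 504, 519 and 398 in fibroblast-like cells (log2 ratios -1.21, -0.14 and -1.99). *Cd44*, a surface receptor, changed sides, at 7.43, 313 and 307 against 84.0, 372 and 147 CPM (-3.50, -0.25 and 1.06).

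Between basal-like and luminal-like cells, 4 of the 22 pathway genes with a ratio in all sets were at least 2-fold higher in basal-like cells, beside 3.96% of all gene rows, and 0 were lower. These were the ligands *Wnt6* and *Wnt11*, the receptor *Fzd1* and *Ccnd2*. *Wnt6* stood at 79.03, 17.2 and 4.33 CPM (153, 78 and 29 UMIs) in basal-like cells against 3.52, 1.73 and 0.441 in luminal-like cells, with the same order of sets as *Wnt10a*. *Ccnd2* stood at 358, 713 and 207 against 137, 173 and 24.2 CPM. *Wnt11* and *Fzd1* were higher still in fibroblast-like cells in every set, *Ccnd2* was in sets 1 and 3 and *Wnt6* in set 3. The part of the fibroblast markers, higher in basal-like than in luminal-like cells, was not tested for these genes.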

How the data were processed

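Droplet 3' single cell libraries were made from the 3 tissues. The labels name version 3 chemistry and the methods another version, and Cell Ranger 3.1.0 with mm10 is given in the submitters' processing notes. The methods state that empty droplets and multiplets were filtered. The deposited values are natural log values, ln(1 + 10000 x UMIs / total UMIs of the cell). The size of 1 UMI was recovered in each cell from its low values. With a tolerance of 0.05, each of the 11120281 nonzero entries came out as a whole UMI number, and every rate was computed from these. The design had foreseen counts, and no count test was run with 1 library per group. Of 9784 rows, 1 with empty cells and 2 that shared a name were left out. The table was held in part (X, 10, 1 to 7 and part of 8 among the chromosomes), so the rows hold 49.4% to 52.7% of the UMIs of a set. Positions come from RefSeq for GRCm38.p6, in which 94.8% of rows matched.

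Cells with at least 200 genes (14476) were clustered in Seurat 5.3.0 (R 4.3.3) after integration of the sets on 2000 features over 20 dimensions, with cell cycle scores regressed out, at resolution 0.5, which gave 14 clusters. The 10 genes, the other pathway genes and the *EGFP* row, 40 in all, were left out of the features. A marker was counted for a cluster if found in 10% or more of its cells and at 2 or more times the median cluster's rate. A cluster was named when 3 or more markers and 50% of a list were counted and no other class led its 10 genes of highest fold. This scoring was set after clustering, and 1 cluster of 352 cells with epithelial and muscle markers stayed unnamed. Scrublet (scanpy 1.11.5) put 3, 0 and 1 cells over its threshold, and no cell was removed. Intervals are exact (Poisson for rates, Clopper-Pearson for shares, the binomial split for ratios) at 95%. A class with 0 UMIs was set to 3 UMIs and the ratio given as a bound. Thinning to 900 UMIs per cell left out 7, 342 and 693 cells.

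Named genes were the 10 members, the pathway genes past 2-fold in all sets or highest in their role, and the 3 closest genes of each member. *Wnt6* met that rule between basal-like and luminal-like cells, and *Mki67*, *Upk1a* and the *Tcf21* and *Dpt* clusters were chosen after their values were seen. The members, lists and comparisons were chosen with earlier results of these data known. The ratios of members were recomputed under the alternatives given below where classes and UMIs allowed. With ratios given as bounds left out, these were 53 without integration and 86 after thinning, of 106 with an interval. The *Tcf21* to *Dpt* ratios were not recomputed under other clusterings, and the steps were tested on simulated data.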

Additional observations from a re-analysis of the deposited data

Results flagged for a closer look

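A ratio is given here when its interval lay above 0 in 1 barcode set and below 0 in another. The sets come from different barcode endings and have no replicates, so the difference between sets was not tested. *Ccnd1* in epithelium-like over fibroblast-like cells had log2 ratios of -1.30 in set 1, 3.23 in set 2 and 3.25 in set 3. *Wnt4* in basal-like over luminal-like cells had -1.25, 1.02 and 1.09, and *Lgr5* in the same comparison had 1.98 in set 1 and -1.33 in set 3. In smooth muscle-like over fibroblast-like cells, *Lgr5* had 1.31 in set 1 (-0.01 when thinned to 900 UMIs per cell) and -1.49 in set 3, and *Rspo3* had -1.07, 0.21 and 0.75. Between the *Tcf21* and *Dpt* clusters, *Rspo3* had 1.29, -0.75 and -0.61 and *Wls* had -0.35 (0.57 when thinned), 0.66 and 0.43. In each of the 7 comparisons set 1 stood on the other side of set 3. Set 1 is also the set with the fewest cells (766) and the deepest (median 19357 UMIs). At 900 UMIs per cell, sets 1 and 3 stood at -0.68 and 3.56 for *Ccnd1*, -1.33 and 1.28 for *Wnt4*, -1.99 and 0.69 for *Rspo3* in smooth muscle and 0.91 and -0.65 for *Rspo3* between the clusters. These are values without intervals, and in set 1 few cells kept a UMI, for *Lgr5* 1 of 86 smooth muscle-like and 4 of 342 fibroblast-like cells, for *Wls* 15 of 202 and 7 of 140 cells of the *Tcf21* and *Dpt* clusters, and for *Ccnd1* 4 of 149 epithelium-like and 21 of 342 fibroblast-like cells. *Lgr5* in basal-like and luminal-like cells of set 1 had 0 UMIs left.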

How the results depend on the processing

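No paired analysis was possible because there was only 1 library per group. The 3 members higher in fibroblast-like cells (*Rspo3*, *Nkd1*, *Tcf7l1*) numbered 2 to 4 under the alternatives run, with *Tcf7l1* lost without integration, where set 1 had only 6 fibroblast-like cells, and *Lgr5* gained at 500 genes per cell. The count of 1 member higher in epithelium rests on *Wnt4* in set 3, at the 2-fold line (log2 ratio 1.01). It was 0 at resolution 1.0, without integration, with the *Tcf21* cluster as the only fibroblasts and with basal-like and luminal-like cells only (*Wnt4* in set 3 at 0.97, 0.99, 0.60 and 0.89), and 2, with *Lef1* added, with the *Dpt* cluster only. The mitotic cluster was in neither class, so leaving it out changed nothing by construction.

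Of the members' ratios with an interval in the report and a value other than a bound under the alternative, those outside that interval were 23 of 86 thinned to 900 UMIs, 15 of 53 without integration, 17 of 106 with equal weight for each cell, 11 of 77 at resolution 1.0, 28 of 78 with the *Dpt* and 22 of 79 with the *Tcf21* cluster only, 2 of 27 with basal-like and luminal-like cells only, 5 of 78 at 500 genes, 5 of 103 without the top 5% of doublet scores, 1 of 79 without cell cycle regression and 0 of 80 with mitotic cells as fibroblasts. The cause was not tested.

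Among ratios whose interval held 0, the sign changed 25 times over these alternatives. Among those whose interval did not, it changed for 8 values. Thinned to 900 UMIs, set 1 gave *Wls* 0.57 for the *Tcf21* over the *Dpt* cluster, and *Lgr5* -0.01 and *Tcf7l1* 0.41 for smooth muscle over fibroblast. With the *Dpt* cluster as the only fibroblasts, *Lef1* in set 1 epithelium became 2.09 and *Rspo3* in set 2 smooth muscle -0.10, and with the *Tcf21* cluster *Lef1* in set 2 smooth muscle became -0.09. *Wls* in set 2 epithelium was -0.16 without integration, and the mean deposited value of *Wls* in set 3 differed by -0.0238 (basal-like minus luminal-like). Mitotic cells as fibroblasts, the *Tcf21* and *Dpt* clusters alone, basal-like and luminal-like cells alone, and 10000 UMIs per cell for pairs were added after seeing the data. Depth limits *Rspo1*, *Wnt10a* in set 3 and all pairs at 900 UMIs.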
